A study of Mus musculus with 18 samples.

Results

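Messenger RNA levels of 40 mouse genes for non-collagen matrix were described in 2 white fat depots and liver. The set holds thrombospondins and other matricellular proteins, adhesive glycoproteins, small and large proteoglycans, elastic fibre components, lysyl oxidases, matrix metalloproteinases and tissue inhibitors of metalloproteinases (TIMPs). Members were taken by symbol from a named list: each of the 40 symbols matched 1 Ensembl identifier among the 22298 in the deposited count tables. The tested animals, written KO here, carried Bckdha f/f with RIP-Cre, and the control animals, written WT, carried Bckdha f/f alone, so both genotypes share the floxed alleles. Both were C57BL/6 mice 12 weeks of age, and 3 KO and 3 WT libraries were made from each of eWAT (white fat beside the epididymis), iWAT (subcutaneous white fat of the groin) and liver, 18 in all. Bckdha encodes a subunit of the branched-chain ketoacid dehydrogenase, which commits branched-chain amino acids to breakdown. RIP names the rat insulin promoter, which drives Cre in pancreatic beta cells and in some neurons, so none of the 3 tissues sampled is where the transgene is mainly active. The labels do not say whether libraries of 1 number in different tissues came from 1 animal, which bears on the comparisons between tissues. All p-values below rest on library-to-library spread, which may be partly technical.

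Matricellular proteins such as the thrombospondins, SPARC and tenascins are secreted into the matrix and tune how cells attach and respond to growth factors, rather than building fibres themselves. Small leucine-rich proteoglycans such as decorin, biglycan and lumican bind collagen fibrils and set their spacing, while fibrillins form microfibrils on which elastin is laid down and latent TGF-beta is held. Lysyl oxidases crosslink collagen and elastin, metalloproteinases cut matrix proteins, and the TIMPs block them. In white fat these proteins surround each adipocyte and come largely from stromal fibroblasts, and in liver mostly from stellate cells and portal fibroblasts, with hepatocytes secreting plasma fibronectin.

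Library totals were 16796147 to 28039742 expected counts. Bckdha, the floxed gene, had 102, 147 and 160 CPM (counts scaled to the library's total) in KO eWAT, against 219, 52.2 and 348 CPM in WT eWAT. It averaged 179 ± 74.0 CPM in KO iWAT and 184 ± 58.1 CPM in WT iWAT, and 208 ± 31.3 CPM in KO liver and 219 ± 21.6 CPM in WT liver (SD, n = 3 each); its groups overlapped in each tissue. Hepatocyte markers summed to at least 195100 CPM in every liver library, and the adipocyte hormone gene Adipoq stood at 543 to 2801 CPM in every fat library except eWAT WT replicate 2, where it was 12.0 CPM. That eWAT WT library also held Gpx5, an epididymal epithelium gene, at 30820 CPM, so its label as fat is not borne out by its markers. KO replicates 1 and 3 of eWAT held the epididymal gene Crisp1 at 1074 and 1233 CPM and the smooth muscle gene Myh11 at 971 and 957 CPM. In iWAT the B cell markers summed to 336 to 1276 CPM in 5 libraries and to 5.7 CPM in WT replicate 2, which had skeletal muscle markers at 419 CPM. The eWAT results are therefore also given without the 3 libraries with epididymal transcripts, which leaves KO replicate 2 against WT replicates 1 and 3, and the iWAT results without WT replicate 2.

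The members were expressed mostly in fat. On the length-scaled FPKM values, the median of the members' mean levels was 22.1 FPKM in eWAT, 20.4 FPKM in iWAT and 0.653 FPKM in liver. For 30 of the 40 members every liver library lay below every fat library, and 25 averaged under 1 FPKM in liver. Dcn, for the collagen-binding proteoglycan decorin, had the highest mean in both depots, at 665 FPKM in eWAT and 623 FPKM in iWAT, followed by Sparc, for a collagen-binding matricellular protein, at 526 and 488 FPKM. Bgn, for biglycan, averaged 161 FPKM in eWAT and 159 FPKM in iWAT, and Timp2, for an inhibitor of Mmp2, averaged 119 and 173 FPKM. The exception was Fn1, for fibronectin, which averaged 248 FPKM in liver and was the single member with its highest mean there. At the low end, Thbs4 had 0 counts in 5 of the 6 liver libraries and 1 count in WT replicate 3, and a count of 0 allows a level of up to 0.116 to 0.161 CPM per liver library (3 counts, counting error only). In bulk tissue, fewer cells of a type and less RNA per cell cannot be told apart.

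**Figure D1:**
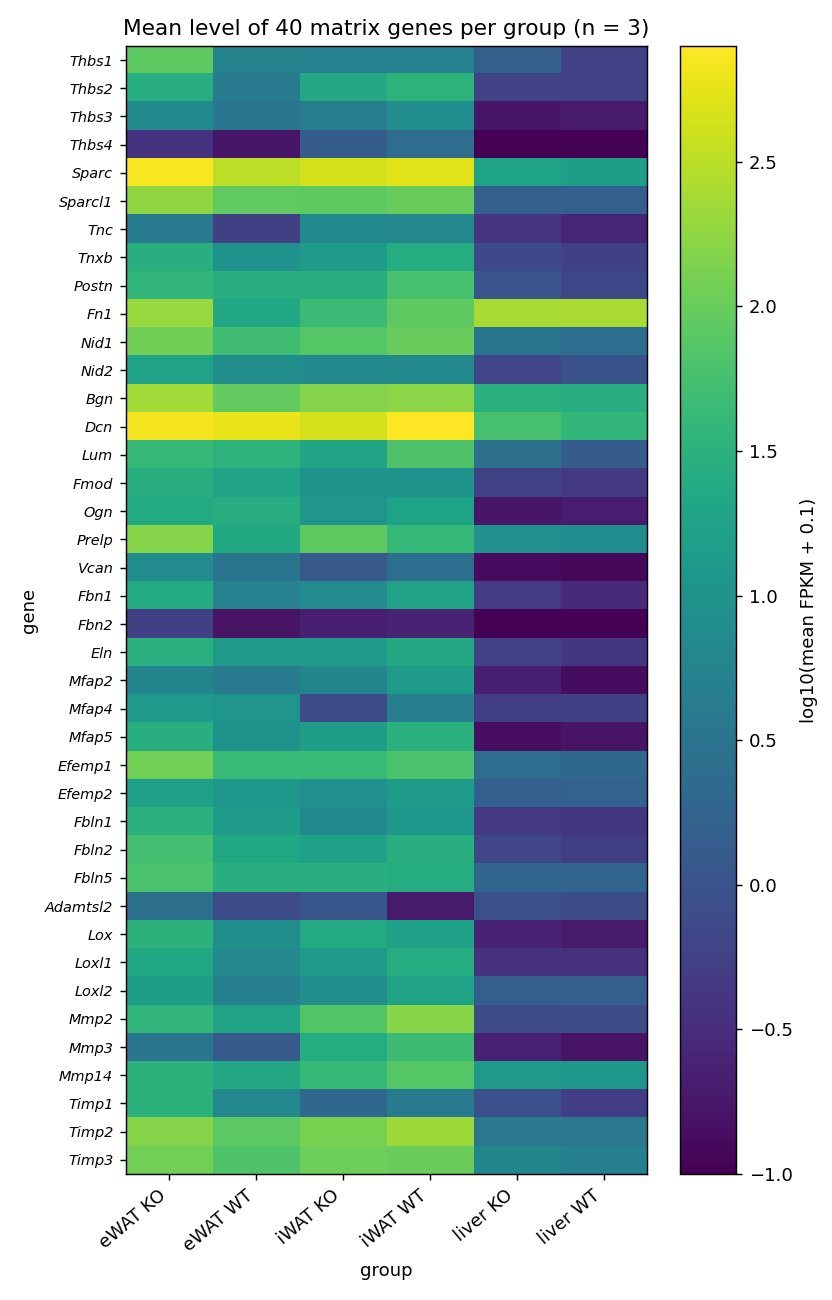
Mean FPKM of the 40 matrix genes in each tissue and genotype group (n = 3 libraries each), as log10 of the mean plus 0.1, with genes grouped by role from top to bottom. The liver columns are dark for most genes, and Fn1 is the bright exception there.

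In eWAT the matrix genes stood higher in KO than in WT for most members, with thrombospondins at the top, but no member passed the test. Of the 39 members with enough counts to be tested, 35 had a log2 fold change above 0 (edgeR's quasi-likelihood test with Benjamini-Hochberg adjustment over 14657 genes), against 48.5% of all genes tested. The members' median log2 fold change was 0.89, against -0.02 over all genes. No gene at all had an adjusted p under 0.05 in eWAT, 0% of those tested, and 7 members had an unadjusted p under 0.05, against 6.88% of all genes. All 7 were higher in KO, where the higher side held 3.4% of all genes and the lower side 3.49%. In 10 members every KO library lay above every WT library, against 7.35% of all genes, and in 0 members every KO library lay below, against 7.42%.

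Among the thrombospondins, Thbs2 had the lowest p of any member. Thbs2, for a trimeric matricellular protein that binds the receptors CD36 and CD47, had 117, 160 and 152 CPM in KO libraries, against 32.1, 22.1 and 21.0 CPM in WT libraries. The 3 KO libraries sat close together and well above the 3 WT libraries, and the log2 fold change was 2.41 to 2.72 with each library left out in turn. With all 6 libraries it was 2.51 with an SE of 0.25 and an adjusted p of 0.508, and without the 3 libraries with epididymal transcripts it was 2.59 with an adjusted p of 0.0554. Thbs1, which encodes an activator of latent TGF-beta, had 113, 1223 and 116 CPM in KO libraries, against 41.9, 33.3 and 29.0 CPM in WT libraries. All KO libraries were above all WT libraries, but KO replicate 2 alone held most of the difference. The log2 fold change of Thbs1 was 3.80 (SE 1.06, adjusted p = 0.633), and without KO replicate 2 it was 1.71 (adjusted p = 0.471). Thbs3 was also higher in every KO library, at 18.8, 20.5 and 22.5 CPM, against 18.4, 7.89 and 7.74 CPM in WT, with the lowest KO value just above the highest WT value. Thbs4 was too low to be tested.

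KO replicate 2 of eWAT stood apart in the same way for Tnc, Fn1 and Timp1, genes known to be induced in wounded tissue. Tnc, for tenascin C, had 7.94, 61.0 and 11.3 CPM in KO libraries, against 4.74, 2.18 and 3.98 CPM in WT libraries, a log2 fold change of 2.87 (SE 0.86, adjusted p = 0.633). Fn1 had 336, 3672 and 526 CPM in KO libraries, against 396, 36.9 and 125 CPM in WT libraries, with a log2 fold change of 3.02 (SE 1.26, adjusted p = 0.633). For Fn1 the groups overlapped, since WT replicate 1 lay above KO replicate 1. Timp1, the inducible metalloproteinase inhibitor, had 4.83, 69.7 and 4.12 CPM in KO libraries, against 5.88, 9.60 and 2.16 CPM in WT libraries. Without KO replicate 2 the log2 fold changes of Tnc and Fn1 were 1.39 and 1.20. Over the 39 tested members, KO replicate 2 was the highest of the 6 libraries for 20, and WT replicate 2, the library with few adipocyte transcripts, was the lowest for 26.

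Among the proteoglycans Prelp differed most in eWAT. Prelp, for a leucine-rich protein that anchors basement membrane to collagen, had 407, 526 and 589 CPM in KO libraries, against 181, 53.1 and 48.9 CPM in WT libraries. All 3 KO libraries exceeded all 3 WT libraries, the log2 fold change was 2.43 (SE 0.58) and the adjusted p was 0.633. Bgn averaged 492 ± 66.1 CPM in KO and 243 ± 104 CPM in WT (SD, n = 3 each), again without overlap, with a log2 fold change of 1.02 (SE 0.36, adjusted p = 0.633). Without the 3 libraries with epididymal transcripts the log2 fold change of Bgn was 0.59. The other leucine-rich proteoglycans did not share this: Dcn, Lum and Ogn had log2 fold changes of -0.18, -0.05 and -0.55, and Fmod 0.27. Vcan, for the large hyaluronan-binding proteoglycan versican, had a log2 fold change of 1.55 with overlapping groups. It had 22.5, 104 and 22.5 CPM in KO libraries, against 26.3, 18.5 and 5.80 CPM in WT libraries. KO replicate 2 alone was high, and KO replicates 1 and 3 lay below WT replicate 1.

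Of the 12 elastic fibre genes in eWAT, 11 had log2 fold changes above 0, with a median of 0.99. Fbn1, for the microfibril protein fibrillin 1, had 116, 386 and 177 CPM in KO libraries, against 97.8, 30.4 and 44.2 CPM in WT libraries. Its KO libraries were all above its WT libraries (log2 fold change 1.98, SE 0.61, adjusted p = 0.633). Adamtsl2, for a secreted protein that binds fibrillin 1 and latent TGF-beta binding protein, had 5.27, 14.8 and 5.94 CPM in KO libraries, against 2.11, 4.77 and 0.626 CPM in WT libraries, also without overlap. All 3 crosslinking enzyme genes were above 0. Loxl2 had 46.6, 111 and 61.9 CPM in KO libraries, against 48.4, 16.7 and 16.9 CPM in WT libraries (log2 fold change 1.42, SE 0.54, adjusted p = 0.633), with KO replicate 1 below WT replicate 1. The metalloproteinases Mmp2 and Mmp14 differed by less than their standard errors, with log2 fold changes of 0.59 (SE 0.78) and 0.19 (SE 0.29). Mmp3 had 4.58, 5.83 and 5.57 CPM in KO libraries, against 3.30, 0.236 and 4.04 CPM in WT libraries, without overlap. The value of WT replicate 2 rests on 4 counts, and the lowest KO value was close to the highest WT value.

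**Figure D2:**
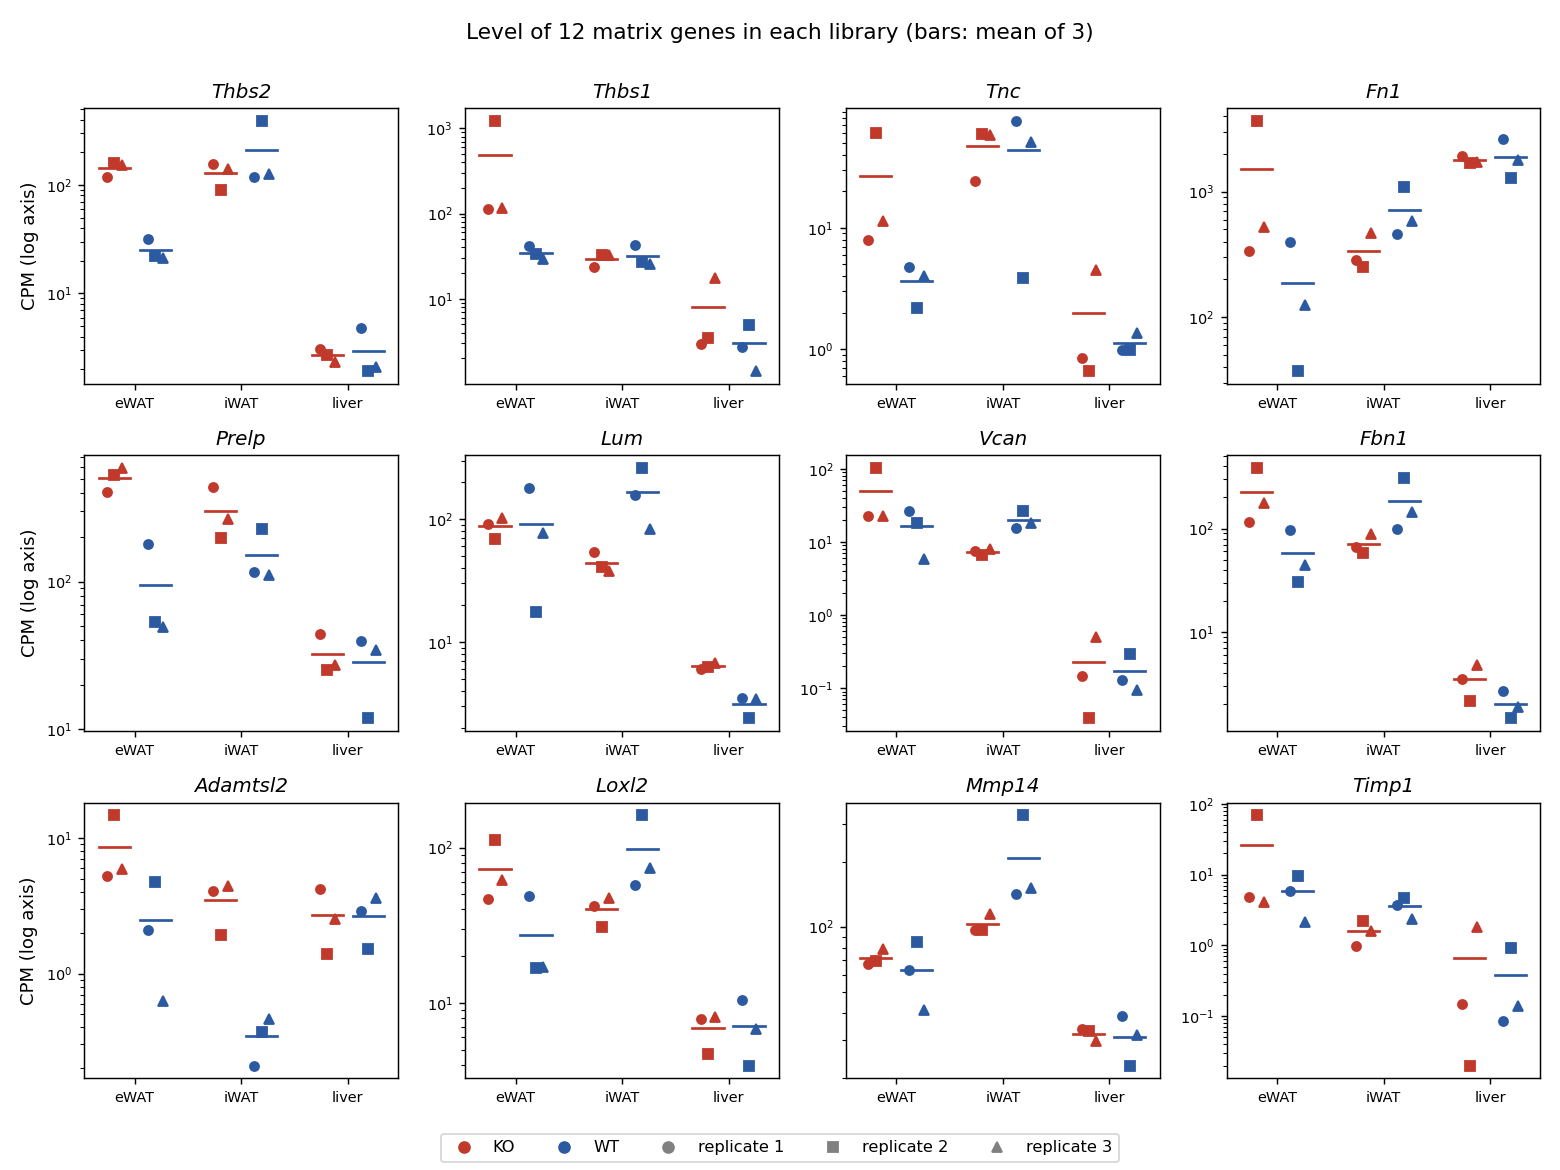
CPM on a log axis for 12 matrix genes in every library, with KO (red) left of WT (blue) in each tissue, symbols for replicate numbers and a bar for the mean of 3; a value of 0 is drawn at 0.02 CPM. In eWAT the groups of Thbs2, Thbs1, Tnc, Prelp, Fbn1 and Adamtsl2 do not overlap. In iWAT those of Adamtsl2, Lum, Vcan, Fbn1, Loxl2, Mmp14 and Timp1 do not overlap, and in liver those of Lum do not.

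The eWAT count depended on the libraries that entered. Without the 3 libraries with epididymal transcripts 27 of 39 members were above 0, and Thbs1 (adjusted p = 0.015) and Tnc (adjusted p = 0.0238) passed, against 0.224% of all genes, in a comparison that has KO replicate 2 as its lone KO library, whose spread is assumed to be like that of the WT libraries. Fbn1, Loxl2 and Fn1 had log2 fold changes of 2.44, 1.77 and 3.83 there. The members' median log2 fold change was 0.66 in that comparison, 0.69 when WT replicate 2 alone was left out and 1.58 when WT replicate 1 alone was left out, against 0.89 with all 6 libraries. DESeq2 called Thbs2 (adjusted p = 2.35e-17) and Prelp (adjusted p = 0.00887) in all 6 libraries, and 0.86% of all genes. edgeR fitted over all 18 libraries called Thbs2 (adjusted p = 0.0274) and 0.344% of all genes.

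In iWAT most members stood lower in KO than in WT, with versican, lumican, fibrillin 1 and the metalloproteinases among them, and Adamtsl2 stood higher; again no member passed the test. All 40 members were tested, 35 with a log2 fold change below 0 and 5 above, where 52% of all 14226 genes tested were above 0. The members' median was -0.87, against 0.01 over all genes. No gene had an adjusted p under 0.05 by edgeR's quasi-likelihood test (0% of those tested), and 11 members had an unadjusted p under 0.05, against 4.43% of all genes. Of these 10 were lower in KO, against 2.99% of all genes, and 1 was higher, against 1.43%. In 11 members every KO library lay below every WT library, against 5.06% of all genes, and in 1 member every KO library lay above, against 4.34%.

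Vcan had 7.51, 6.58 and 7.93 CPM in KO iWAT, against 15.8, 26.8 and 18.1 CPM in WT iWAT. The KO libraries were within a narrow band below all WT libraries, with a log2 fold change of -1.46 (SE 0.25, adjusted p = 0.9997). Lum, for lumican, had 54.2, 41.1 and 37.6 CPM in KO libraries, against 158, 262 and 83.3 CPM in WT libraries. The groups did not overlap, and the log2 fold change was -1.92 (SE 0.43, adjusted p = 0.9997). Dcn was lower in 2 of the 3 KO libraries than in any WT library, at 1123, 683 and 524 CPM in KO, against 1048, 2010 and 1365 CPM in WT. Prelp went the other way, averaging 299 ± 122 CPM in KO iWAT and 152 ± 66.5 CPM in WT iWAT (SD, n = 3 each), with overlapping groups.

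Elastic fibre genes were lower in KO iWAT for 10 of 12 members. Fbn1 had 65.9, 57.6 and 89.0 CPM in KO libraries, against 99.2, 306 and 144 CPM in WT libraries, with no overlap (log2 fold change -1.37, SE 0.44). Mfap4, for a microfibril-associated glycoprotein, had 0.598, 0.932 and 1.69 CPM in KO libraries, against 6.07, 17.4 and 1.85 CPM in WT libraries. Its groups just missed each other, and its log2 fold change of -3.00 had an SE of 0.88. Adamtsl2 was the member of lowest p, at 4.07, 1.91 and 4.44 CPM in KO libraries, against 0.209, 0.369 and 0.462 CPM in WT libraries. These values rest on 109, 39 and 84 counts in KO and 4, 9 and 9 counts in WT. Every KO library was above every WT library, and the log2 fold change was 3.30 (SE 0.52, adjusted p = 0.9997); on the log2(FPKM + 1) scale, which understates the change of low genes, the difference was 0.85.

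The 3 metalloproteinase genes and 2 of the 3 crosslinking enzyme genes had log2 fold changes below 0 in iWAT. Lox, for lysyl oxidase, was the exception, at 161, 85.9 and 76.5 CPM in KO libraries, against 44.3, 141.5 and 70.6 CPM in WT libraries, with overlapping groups and a log2 fold change of 0.33 (SE 0.49). Mmp3, for stromelysin 1, had 45.1, 37.2 and 53.6 CPM in KO libraries, against 75.2, 129 and 66.1 CPM in WT libraries (log2 fold change -0.99, SE 0.30). Mmp14, for a membrane-bound enzyme that activates Mmp2, had 96.9, 96.3 and 115 CPM in KO libraries, against 142, 328 and 150 CPM in WT libraries (log2 fold change -1.01, SE 0.36). Loxl2 had 42.1, 30.9 and 47.5 CPM in KO libraries, against 57.4, 162 and 73.9 CPM in WT libraries (log2 fold change -1.28, SE 0.42). For Mmp3, Mmp14 and Loxl2 no KO library reached any WT library, and their adjusted p-values from edgeR, like those of Fbn1 and Mfap4, were 0.9997. All 3 TIMP genes were below 0, and Timp1 averaged 1.59 ± 0.618 CPM in KO and 3.57 ± 1.15 CPM in WT (SD, n = 3 each) without overlap.

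WT replicate 2, with few B cell and more skeletal muscle transcripts, was the highest library for 32 of the 40 members. Without it 11 members were above 0 in place of 5, and the median log2 fold change was -0.35. The log2 fold changes of Vcan and Lum were then -1.21 and -1.45, those of Fbn1, Mmp14, Loxl2 and Mmp3 were -0.78, -0.51, -0.71 and -0.64, and that of Adamtsl2 was 3.35. DESeq2 called Adamtsl2 (adjusted p = 0.00028), Vcan (adjusted p = 0.000904) and Lum (adjusted p = 0.00695) with all 6 libraries, and 0.471% of all genes.

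**Figure D3:**
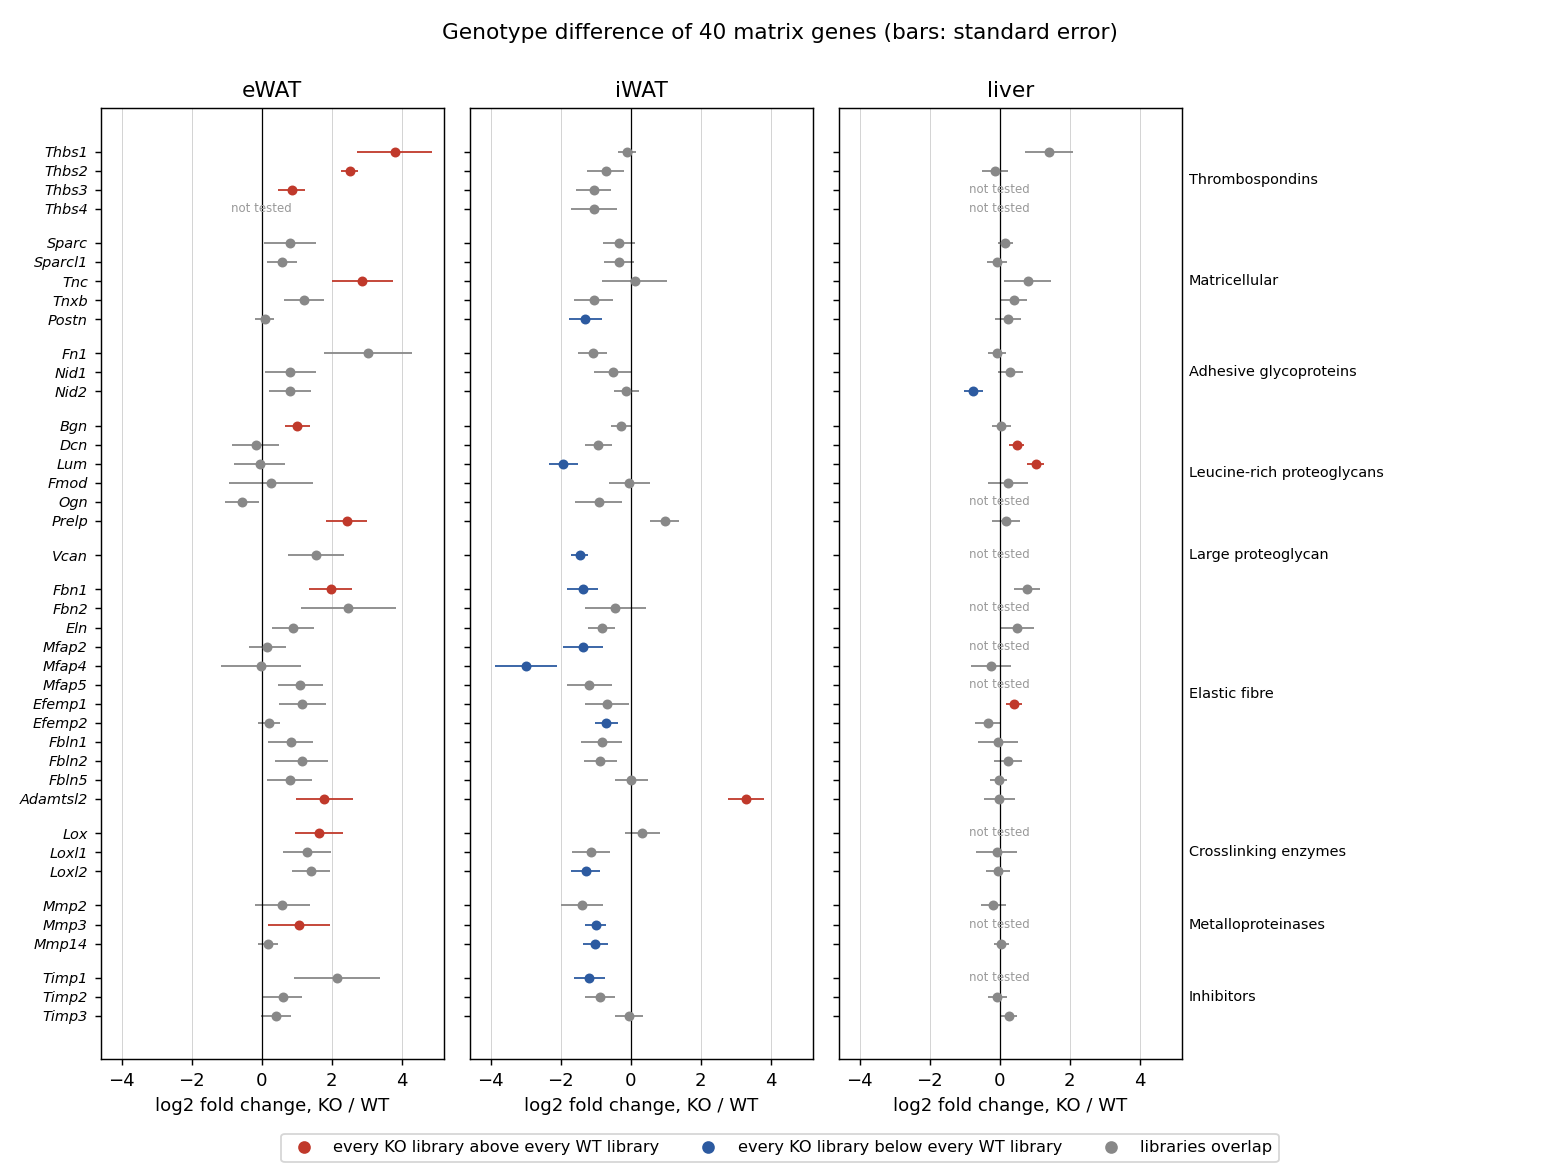
log2 fold change of KO over WT with its standard error (edgeR) for the 40 matrix genes in eWAT, iWAT and liver, grouped by role; red and blue mark genes whose KO libraries all lie above or all below the WT libraries, and grey those that overlap. Points lie mostly right of 0 in eWAT (35 of 39) and left of 0 in iWAT (35 of 40), and around 0 in liver (17 of 30 above).

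In liver the members lay around 0, and lumican was the one with the smallest p. Of the 30 members tested, 17 were above 0 and 13 below, against 49.7% of all 11915 genes above 0, and the median log2 fold change was 0.10, against 0.00 over all genes. By edgeR's quasi-likelihood test 6 genes of the whole table had an adjusted p under 0.05 (0.0504%), none of them a member. Unadjusted p was under 0.05 for 3 members, against 6.26% of all genes: Lum and Dcn were higher in KO, against 3%, and Nid2 was lower, against 3.26%. In 3 members, Lum, Dcn and Efemp1, every KO library lay above every WT library, against 5.98% of all genes, and in Nid2 every KO library lay below, against 7%. The 10 members without enough counts to be tested in liver were Timp1, Ogn, Vcan, Thbs3, Thbs4, Lox, Fbn2, Mfap2, Mfap5 and Mmp3.

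Lum had 6.06, 6.24 and 6.69 CPM in KO liver, against 3.48, 2.38 and 3.43 CPM in WT liver. The values rest on 123, 162 and 133 counts in KO and 81, 41 and 73 counts in WT, and the KO libraries were close to each other and above all WT libraries. Its log2 fold change was 1.02 (SE 0.23) with an adjusted p of 0.415 by edgeR and 0.0491 by DESeq2, which called 0.546% of all genes. Dcn had 85.2, 93.0 and 112 CPM in KO liver, against 80.8, 50.6 and 76.4 CPM in WT liver (log2 fold change 0.48, SE 0.21, adjusted p = 0.79). Nid2, for a nidogen that links laminin and collagen IV in basement membranes, had 2.71, 2.46 and 2.46 CPM in KO liver, against 4.39, 2.90 and 5.49 CPM in WT liver (log2 fold change -0.75, SE 0.28, adjusted p = 0.70). Efemp1, for a fibulin, averaged 4.05 ± 0.281 CPM in KO and 3.03 ± 0.292 CPM in WT (SD, n = 3 each; log2 fold change 0.41, SE 0.23, adjusted p = 0.818). WT replicate 2 had the lowest value of the 6 for 13 members and also low endothelial markers, at 111 CPM in sum against 268 to 357 CPM in the other 5 livers. Its 8 hepatic stellate cell markers were also low, at 146.7 CPM in sum against 273.3 to 432.9 CPM in the other 5 livers and none at 0 in any of them, and the part of these markers in these differences was not tested. With WT replicate 2 left out the log2 fold changes of Lum, Dcn and Nid2 were 0.87, 0.30 and -0.95.

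The other members of low p in liver rested on 1 library or overlapped. Thbs1 had 2.96, 3.46 and 17.4 CPM in KO liver, against 2.75, 4.88 and 1.41 CPM in WT liver, and Tnc had 0.838, 0.654 and 4.48 CPM, against 0.989, 0.987 and 1.36 CPM. KO replicate 3 was the high library for both. The log2 fold change of Thbs1 was 1.41 (SE 0.69, adjusted p = 0.818) and was 0.12 without KO replicate 3, and that of Tnc was 0.79 (SE 0.68, adjusted p = 0.863) and was -0.59 without it. Fbn1 (log2 fold change 0.77, SE 0.36, adjusted p = 0.798) and Tnxb (0.41, SE 0.37, adjusted p = 0.874), for tenascin X, overlapped between genotypes. Without KO replicate 3 their log2 fold changes were 0.47 and 0.06, and that of Tnxb lay between 0.17 and 0.79 in the comparisons that left out any other liver library. Fn1, the abundant member in liver, had 1932, 1687 and 1728 CPM in KO, against 2624, 1275 and 1784 CPM in WT, a log2 fold change of -0.09 (SE 0.26).

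The genotype difference of the 2 depots was then compared directly. Of the 39 members tested in both depots, 30 had a log2 fold change above 0 in eWAT and below 0 in iWAT, against 19.6% of all genes tested in both, 5 were above 0 in both, 4 were below 0 in both and 0 had the opposite order. The difference of the genotype effects, iWAT minus eWAT, was above 0 for 1 of 40 members and below 0 for 39, where 52.4% of all 15455 genes were above 0. The members' median was -1.83, against 0.03 over all genes, and the libraries are those of the preceding comparisons. By edgeR's quasi-likelihood test no gene had an adjusted p under 0.05 for this difference (0%), and 16 members had an unadjusted p under 0.05, against 5.55% of all genes. All 16 were below 0, a side that held 3.84% of all genes, with 1.71% above. The members of lowest p were Thbs2 at -3.27 (SE 0.62), Fbn1 at -3.39 (SE 0.79), Loxl2 at -2.75 (SE 0.72), Thbs1 at -3.92 (SE 1.09) and Vcan at -3.05 (SE 0.90), each with an adjusted p of 0.89. DESeq2 called Thbs2 and Fbn1, and 0.194% of all genes, and edgeR without the 3 eWAT libraries with epididymal transcripts called Thbs1, and 0.0126% of all genes. Without iWAT WT replicate 2 the count at an unadjusted p under 0.05 was 9, against 3.86% of all genes, and the median was -1.18. In Fbn1 and Mmp3 every KO library was above every WT library in eWAT and below every WT library in iWAT.

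Promoters are shown for 3 of these 5 members, Thbs2, Fbn1 and Vcan, which had log2 fold changes of opposite sign in the 2 depots. For Vcan the eWAT groups overlapped and KO replicate 2 alone was high there. RefSeq windows on GRCm38.p6 from 250 bases before to 50 bases after the start matched 26 of the 40 members by symbol. Thbs2 lies at chr17:14694213-14694512, Fbn1 at chr2:125506389-125506688 and Vcan at chr13:89742463-89742762, all on the minus strand; in the GENCODE M21 annotation the genes span chr17:14665500-14694235, chr2:125300594-125507993 and chr13:89655312-89742509. Each sequence is written 5′ to 3′ along the gene, with matches to the searched motifs in capitals on either strand.
Thbs2: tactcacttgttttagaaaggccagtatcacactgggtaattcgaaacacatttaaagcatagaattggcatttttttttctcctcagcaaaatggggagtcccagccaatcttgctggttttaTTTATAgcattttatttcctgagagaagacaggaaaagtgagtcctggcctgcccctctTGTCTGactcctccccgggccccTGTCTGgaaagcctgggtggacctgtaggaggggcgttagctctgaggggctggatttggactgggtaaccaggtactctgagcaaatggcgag
Fbn1: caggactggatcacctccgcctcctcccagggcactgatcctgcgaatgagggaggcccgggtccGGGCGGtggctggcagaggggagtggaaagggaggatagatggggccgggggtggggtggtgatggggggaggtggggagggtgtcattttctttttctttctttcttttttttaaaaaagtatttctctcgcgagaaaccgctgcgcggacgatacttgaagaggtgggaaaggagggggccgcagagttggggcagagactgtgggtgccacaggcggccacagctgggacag
Vcan: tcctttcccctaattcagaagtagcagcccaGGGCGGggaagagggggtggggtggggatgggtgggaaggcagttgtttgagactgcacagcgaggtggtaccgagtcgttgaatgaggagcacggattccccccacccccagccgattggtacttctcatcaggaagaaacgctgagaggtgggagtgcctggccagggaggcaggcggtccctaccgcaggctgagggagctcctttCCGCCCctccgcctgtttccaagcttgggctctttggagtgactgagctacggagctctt
Both strands were searched for the TATA box letters TATAAA, the GC box GGGCGG, the AP-1 element TGANTCA, the TEAD element CATTCC, the SMAD-type CAGA element CAGACA and the SMAD palindrome GTCTAGAC. No 2 matches overlap in these windows. Thbs2 held the CAGA element at positions -67 and -44 from the start, both on the reverse strand, and the TATA box letters at position -126, also reversed. Fbn1 held the GC box at position -185, and Vcan held it at positions -219 and -10. Over the 33 windows of the 26 members, 21 held the GC box, 10 the CAGA element and 7 the TATA box letters, while the shares among all 32851 windows were 35.7%, 21.0% and 13.6%. The TEAD element was in 5 of the 33 windows and in 14.7% of all windows, the AP-1 element in 3 and 7.81%, and the SMAD palindrome in 0 and 0.213%. These matches describe letters in the windows and were not tied to any binding measurement.

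Between liver and the fat depots, Thbs2 was the member of lowest p against eWAT and Lum the member of lowest p against iWAT. The genotype effect of Thbs2 in liver minus eWAT was -2.61 (SE 0.47, adjusted p = 0.595), and 7 of 39 members were above 0, against 55.2% of all genes. An unadjusted p under 0.05 was found for 4 members, against 5.85% of all genes, all of them below 0, where the shares of all genes were 2.7% below and 3.14% above. The genotype effect of Lum in liver minus iWAT was 2.94 (SE 0.49, adjusted p = 0.207), and that of Adamtsl2 was -3.29 (SE 0.77, adjusted p = 0.624). In that comparison 35 of 40 members were above 0, against 48.5% of all genes, and 7 members had an unadjusted p under 0.05, against 4.64% of all genes, 6 above 0 against 2.43% and 1 below against 2.21%. Lum was thus higher in every KO liver than in every WT liver and lower in every KO iWAT library than in every WT iWAT library. edgeR called no gene in either comparison (0%), while DESeq2 called Thbs2 in liver minus eWAT, with 0.26% of all genes, and Adamtsl2 and Lum in liver minus iWAT, with 0.239% of all genes.

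A genotype effect fitted as common to both depots had its lowest p-values among the members for Adamtsl2 and Prelp, which are 2 of the 5 members above 0 in each depot. This fit takes the effect to be equal in both depots, while 30 of 39 members had opposite signs in them. Adamtsl2 had a common log2 fold change of 2.44 (SE 0.54, adjusted p = 0.323) and Prelp of 1.72 (SE 0.43, adjusted p = 0.414) by edgeR, with 0% of all genes called. DESeq2 called both, with 0.705% of all genes. These 2 members had an unadjusted p under 0.05, against 8.24% of all genes, both higher, where 4.48% of all genes were higher and 3.76% lower. Of the 40 members 27 were above 0, against 51.8% of all genes, and 14 without eWAT WT replicate 2, 17 without eWAT WT replicate 3 and 11 without the 3 libraries with epididymal transcripts. Adamtsl2 was higher in 3 of 3 KO libraries than in any WT library of the same depot, in both depots. The libraries are those of the single-depot comparisons, so this fit adds no independent evidence.

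Macrophage markers differed between genotypes in both depots, on the same side as most matrix genes. The 9 macrophage markers summed to 753 to 1320 CPM in KO eWAT and 198 to 726 CPM in WT eWAT. There 6 of 9 markers were higher in every KO library on the within-tissue scale of the matrix genes, against 7.35% of all genes. The eWAT sums parted narrowly, at 753 CPM in KO replicate 1 and 726 CPM in WT replicate 1, on the scale of all 18 libraries. On the within-tissue scale WT replicate 1 lay above KO replicate 1, so the eWAT sums overlapped there. The lowest eWAT sum, 198 CPM, was in WT replicate 2, the library with few adipocyte transcripts. In iWAT the markers summed to 763 to 1190 CPM in KO and 1494 to 1754 CPM in WT. There 7 of 9 were lower in every KO library, against 5.06% of all genes. None of the 9 markers was at 0 in any fat library. In liver their sums were 814 to 886 CPM in KO and 731 to 1026 CPM in WT. The sums of the 11 fibroblast and progenitor markers overlapped between genotypes in fat. They were 5397 to 6567 CPM in KO eWAT and 1099 to 6240 CPM in WT eWAT, and 3867 to 8649 CPM in KO iWAT and 2709 to 10970 CPM in WT iWAT. One marker, Gsn, weighed heavily in them, with 5413 of the 6240 CPM in eWAT WT replicate 1. Taken singly, 8 of the 11 markers had log2 fold changes above 0 in eWAT, against 48.5% of all genes. In iWAT 2 were above 0 and 9 below, where 52% of all genes were above 0. The lowest eWAT sum and the highest iWAT sum of these markers were each in WT replicate 2. These were also the libraries with the lowest and highest median level of the matrix genes, at -1.45 and 1.22 on the log2 CPM scale relative to each gene's mean. The low eWAT sum came mostly from Gsn, at 516 CPM in WT replicate 2. Pdgfra, Cd34 and Dpp4 were highest of the eWAT libraries there, at 207, 181 and 80.4 CPM, and the other markers were lowest. The part of these marker differences in the matrix gene results was not tested.

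**Figure D4:**
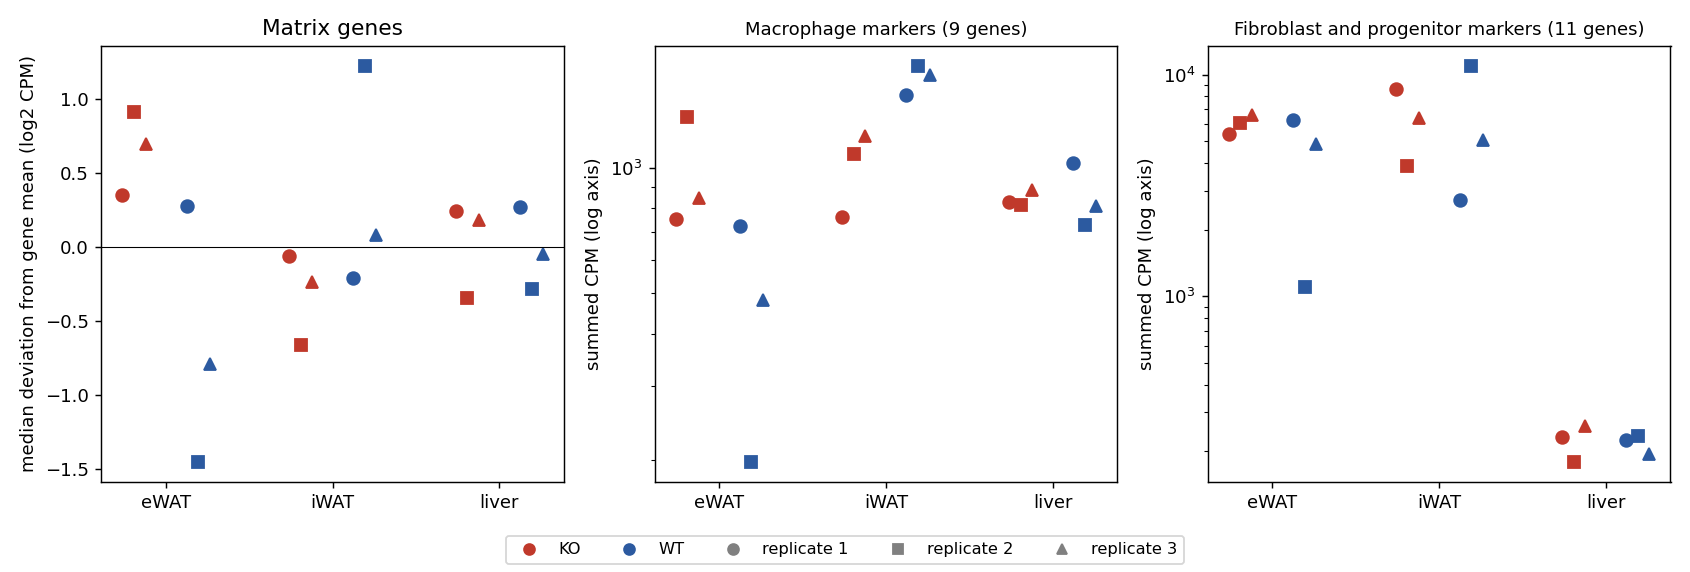
Per library, the median deviation of the tested matrix genes from each gene's mean in that tissue (log2 CPM, left), and the summed CPM of macrophage markers (middle) and of fibroblast and progenitor markers (right) on log axes, with KO (red) left of WT (blue) and symbols for replicate numbers. WT replicate 2 is the lowest eWAT library at -1.45 and the highest iWAT library at 1.22 in the left panel. Macrophage sums, scaled over all 18 libraries, separate the genotypes in both depots in opposite directions. In eWAT the separation is narrow and is lost on the within-tissue scale of the left panel.

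Other genes of the matrix and its signalling were counted from 4 lists. In eWAT, 26 of 26 other remodelling enzymes tested had log2 fold changes above 0, as did 31 of 38 other matrix genes, 18 of 23 matrix receptors and 16 of 20 TGF-beta pathway genes, with 0 called in any list. Of all genes tested in eWAT, 48.5% were above 0. Adamts1, for a versican-cleaving protease, had 123, 175 and 99.3 CPM in KO eWAT, against 57.3, 19.0 and 25.8 CPM in WT eWAT. Sdc4, for a heparan sulfate receptor of fibronectin and thrombospondins, had 86.3, 110 and 62.8 CPM in KO, against 46.1, 31.2 and 26.9 CPM in WT. Both genes were higher in every KO library, with log2 fold changes of 1.96 (SE 0.47) and 1.31 (SE 0.30) and adjusted p-values of 0.633 from edgeR.

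In iWAT the same lists had 6 of 27 enzymes, 8 of 37 other matrix genes, 7 of 23 receptors and 9 of 20 TGF-beta pathway genes above 0, against 52% of all genes, with 0 called. Bmp1, for a procollagen C-proteinase, averaged 29.1 ± 7.04 CPM in KO iWAT and 65.9 ± 34.4 CPM in WT iWAT (SD, n = 3 each), lower in every KO library. Ccn1, for a matricellular protein of the CCN family, averaged 11.9 ± 3.80 CPM in KO iWAT and 6.00 ± 1.86 CPM in WT iWAT (SD, n = 3 each).

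In liver the lists had 12 of 21 enzymes, 15 of 28 other matrix genes, 13 of 20 receptors and 16 of 19 TGF-beta pathway genes above 0, against 49.7% of all genes, with 0 called. Ccn2, for connective tissue growth factor, had 8.57, 9.78 and 12.0 CPM in KO liver, against 3.01, 3.48 and 3.48 CPM in WT liver. The KO livers were all above the WT livers, and the log2 fold change was 1.61 (SE 0.22, adjusted p = 0.0604 by edgeR). Ccn1 had a log2 fold change of 1.42 (SE 0.24, adjusted p = 0.146 by edgeR) there. Ccn1 was higher in every KO library than in every WT library of the same tissue in eWAT, iWAT and liver. Taken singly, these tissues had 7.35%, 4.34% and 5.98% of all genes in that order.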

How the data were processed

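Polyadenylated RNA from Trizol extracts was made into random-primed libraries and run on an Illumina instrument, per the labels' protocols, which do not say if the kit keeps strand. The submitters' processing notes list StringTie 1.3.1, RSEM, HISAT2, Bowtie2 2.2.8, fastp 0.18.0, edgeR and DESeq2 with build mm10, but not their roles. For each library the authors deposited 1 table of expected counts and 1 of FPKM. The deposited expected counts (8.33% of values more than 0.01 from a whole number) were rounded to whole numbers here. The deposited FPKM values are the authors' length- and depth-scaled levels and were used for levels between genes and as an alternative.

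Each KO against WT comparison was fitted on all genes past filterByExpr (minimum count 10 and minimum total 15) in the 6 libraries of 1 tissue, with edgeR 4.0.16 (TMM scaling, robust quasi-likelihood fit, adjusted p under 0.05 taken as a call) under R 4.3.3; differences between tissues used 12 libraries and an interaction term. CPM of members, of Bckdha and of the other matrix and signalling genes are on the TMM-scaled library size within a tissue. CPM of cell type markers, single or summed, are on that of all 18 libraries. "Higher in every library" compares CPM on the within-tissue scale, also for cell type markers. Alternatives were DESeq2 1.42.0, limma 3.58.1 on log2(FPKM + 1), other scaling, no filter, a replicate block, left-out libraries and 1 fit of 18 libraries. The newer form of edgeR's quasi-likelihood fit was made the main one after both forms had been seen, and the older form was added as an alternative. On simulated counts with 200 changed genes the fit was tested for recovery. The simulated spread was capped, so this check does not show what share of real changes these comparisons could find. The members, lists and named-gene rule (the 8 members of lowest p in each KO against WT comparison get full statistics, and list genes are the 3 of lowest p, of which 1 is not reported here) were chosen with earlier results of these data known. Exons of 17 pairs of a member and another gene overlap, among them Mfap4 with Mapk7, Nid2 with Rtraf, Thbs3 with Mtx1, Timp3 with Syn3, Fbn1 with Gm9913, Thbs1 with Gm29233, Prelp with Gm15851, Loxl2 with Gm27177, Fn1 with Apol7d and Tnxb with the pseudogene Cyp21a2-ps, on the opposite strand, and reads of such pairs may be shared. Intervals for counts of 0 cover counting error only.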

Additional observations from a re-analysis of the deposited data

Results flagged for a closer look

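Fbn1 had KO libraries wholly above WT libraries in eWAT and wholly below them in iWAT. The difference of its genotype effects, iWAT minus eWAT, was -3.39 on the log2 scale, and its interaction test by edgeR gave an adjusted p of 0.89. Mmp3 had the same opposite order in the 2 depots, with a difference of -2.11 (SE 0.84) and an adjusted p of 0.89 by edgeR. Its eWAT groups lay close, with the lowest KO value at 4.58 CPM and the highest WT value at 4.04 CPM. In eWAT WT replicate 2 it had 4 counts. Lum had KO libraries wholly above WT libraries in liver and wholly below them in iWAT, with a difference, liver minus iWAT, of 2.94 and an adjusted p of 0.207 by edgeR.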

How the results depend on the processing

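By edgeR 0 members were called in the 7 comparisons, with the older form of the quasi-likelihood fit (chosen as an alternative after seeing the data) as with the newer. At unadjusted p under 0.05 the newer form gave 7 members in eWAT, against 6.88% of all genes, 11 in iWAT, against 4.43%, and 3 in liver, against 6.26%. It gave 16 for iWAT minus eWAT, against 5.55%, and 4 for liver minus eWAT, against 5.85%. For liver minus iWAT it gave 7, against 4.64%, and for the effect common to both depots 2, against 8.24%. DESeq2 called 2 members in eWAT, 3 in iWAT, 1 in liver, 2 for iWAT minus eWAT, 1 for liver minus eWAT, 2 for liver minus iWAT and 2 for the effect common to both depots, where it called 0.194% to 0.86% of all genes. One fit of 18 libraries called 1 member in eWAT (0.344% of all genes), and limma on FPKM called 1 for liver minus eWAT (0.0267% of all genes). Without the 3 eWAT libraries with epididymal transcripts, which left KO replicate 2 as the lone KO library, the members' median log2 fold change in eWAT was 0.66. When each library was left out in turn, 0 members were called in each tissue and 0 to 1 for liver minus iWAT, where Lum was called without iWAT WT replicate 3 (0.00671% of all genes). Over the same settings 33 to 38 members were above 0 in eWAT with medians of 0.69 to 1.58, 4 to 11 in iWAT with medians of -1.12 to -0.35, and 14 to 28 in liver with medians of -0.12 to 0.35. The log2 fold change of Tnc in liver ran to 1.24 with other libraries left out and was -0.59 without KO replicate 3, the one of 320 recomputed values of named members that changed sign. With the replicate block in edgeR 0 members were called in all 7 comparisons, and 4 members in eWAT, 4 in iWAT and 4 in liver had an unadjusted p under 0.05, against 2.53%, 1.24% and 6.4% of all genes in these tissues. Within a tissue, the KO and WT libraries that share a number correlated at 0.01, -0.52 and -0.25 in eWAT, at -0.74, -0.59 and 0.15 in iWAT and at 0.17, 0.15 and -0.24 in liver. The numbers were therefore not taken as KO and WT pairs. These correlations cannot show whether libraries of 1 genotype and 1 number in different tissues came from 1 animal. The comparisons between tissues treated libraries of different tissues as independent.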

Other observations

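Tnc and Fmod, for the collagen-binding proteoglycan fibromodulin, stood apart from the other matrix genes in iWAT WT replicate 2. Fmod had 15.1, 39.6 and 37.0 CPM in KO iWAT, against 54.7, 12.6 and 26.9 CPM in WT iWAT, and Tnc had 24.5, 59.7 and 58.5 CPM in KO iWAT, against 76.2, 3.82 and 51.4 CPM in WT iWAT. The B cell markers summed to 336, 1191 and 1115 CPM in the same KO libraries, and to 1276, 5.7 and 536 CPM in the same WT libraries. WT replicate 1 was the highest and WT replicate 2 the lowest library for both genes and for the B cell sum.

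In eWAT Fmod and Mfap4 varied within each genotype more than between them. Fmod had 92.1, 6.04 and 123 CPM in KO eWAT, against 74.4, 101 and 6.94 CPM in WT eWAT, and Mfap4 had 31.8, 2.81 and 20.4 CPM in KO eWAT, against 10.7, 42.4 and 2.67 CPM in WT eWAT. The 8 smooth muscle markers summed to 2742, 168 and 2643 CPM in the same KO libraries, and to 333, 1292 and 253 CPM in the same WT libraries. KO replicate 2 and WT replicate 3 were the 2 lowest libraries for both genes and for the marker sum. The part of these marker differences in the gene levels was not tested.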
